A study of Danio rerio with 24 samples.

Results

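The circadian clock genes of the zebrafish larval intestine were followed across 5, 7 and 9 days post fertilization (dpf). They were taken as the rows of the deposited RNA table whose gene name is on a list of 40 clock gene names. The rule found 40 rows among the 30263 genes of the table. These rows carry 39 of the names, because clocka names 2 rows and no row is named cry3. Intestines were dissected from larvae of strain AB, described as wild type with the transgene tg(cldn15la:GFP), a green fluorescent reporter driven by an intestinal claudin promoter. All groups shared this background and rearing at 28.5 °C in 14 hours of light followed by 10 of darkness. A diet of rotifers, Artemia and dry feed is described for all groups. How long the larvae of each age had been fed was not examined. Each age had 3 RNA libraries, each from a pool of 10 intestines. A library is written as its age and its number (9dpf_2 is the library numbered 2 at 9 dpf). The hour of collection is not given in the sources used here, so a difference in age and a difference in hour of collection between the groups cannot be told apart.

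The clock is a feedback loop of transcription that runs in nearly every cell, the intestine included. Dimers of CLOCK or NPAS2 with BMAL (the arntl genes) bind E-box elements and activate the period, cryptochrome, REV-ERB (nr1d), dbp and ciart genes. PER and CRY proteins then block the dimer, while REV-ERB and ROR proteins repress and activate the arntl genes through a shared element, and PAR bZIP factors (dbp, tef, hlf) and NFIL3 compete at D-box elements. In animals kept in light and dark cycles the transcripts of E-box targets such as nr1d1 and dbp peak at another time of day than those of arntl1. Zebrafish tissues are also light sensitive themselves, and light induces per2, cry1aa and the photolyase gene cry5 in zebrafish cells.

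Values are normalized read counts given for every library, then as mean ± SD over n = 3 pools. Because longer transcripts collect more reads, levels of different genes were not ranked. The libraries held between 7014333 and 14327144 reads, and a gene with 0 reads could lie at up to 3 reads, which is 2.56 to 3.87 normalized read counts. The lowest value of any clock gene was 17.7, so all 40 were measured in all 9 libraries, and all 40 passed the filter on low values. The tissue label was checked with 11 enterocyte markers, which held 3.58% to 6.58% of the signal of a library, with cldn15la between 9486 and 20590. Their sum was higher at each later age without overlap, going from 251100 to 375000 at 5 dpf, over 521700 to 606300 at 7 dpf, to 639200 to 925600 at 9 dpf. Markers of photoreceptors and the pineal gland, where clock genes are also strongly used, held 0.00397% to 0.0111% of the signal, and those of neurons 0.00432% to 0.0121%. Larger shares were held by markers of the exocrine pancreas (0.0489% to 0.172%) and of smooth muscle (0.0800% to 0.158%). The pancreas markers summed to 3201 to 11630 at 5 dpf, 8576 to 20820 at 7 dpf and 6934 to 11780 at 9 dpf. The 12 liver markers summed to 725 to 3111 at 5 dpf, 708 to 1965 at 7 dpf and 431 to 512 at 9 dpf, and the 8 leukocyte markers to 273 to 351, 329 to 445 and 444 to 538. The 10 rows of skeletal muscle markers summed to 1301 to 1872, 1563 to 2465 and 919 to 1069. The part of these cells in the changes of the clock genes was not tested. In such bulk samples fewer cells of a type and less RNA per cell cannot be told apart.

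Most of the called differences set 5 dpf apart from the later ages. From 5 to 7 dpf 3 clock genes rose and 7 fell, beside 2.63% and 1.43% of all genes tested. From 5 to 9 dpf 6 rose and 10 fell, beside 12.6% and 4.28%. From 7 to 9 dpf 0 rose and 0 fell, beside 1.5% and 0.383%. A call is an adjusted p under 0.05 in limma, fitted over 24298 genes. At 7 against 5 dpf the calls were 25% of the clock genes, where 4.05% of all genes tested were called (5.17% of genes with a mean as high as the lowest clock gene). From 5 to 9 dpf they were 40%, beside 16.8% of all genes and 21.5% of those with such a mean, and from 7 to 9 dpf 0%, beside 1.88% and 2.39%. The median absolute change of the clock genes was log2 0.36 at 7 against 5 dpf and 0.42 at 9 against 5 dpf, and over all genes it was 0.24 and 0.36. Both comparisons use the same 5 dpf libraries. Counted by libraries that did not overlap, 8 clock genes were higher and 8 lower at 7 than at 5 dpf, beside 11.9% and 7.49% of all genes. By the same count 7 were higher and 4 lower at 9 than at 7 dpf (11.5% and 8.89% of all genes), and 9 higher and 11 lower at 9 than at 5 dpf (20.5% and 15.7%). The 0 calls from 7 to 9 dpf stand beside 1 call each in edgeR and DESeq2, that of tefa, where 3.25% and 3.57% of all genes tested were called. In limma 5 clock genes had an unadjusted p under 0.05 in that comparison, a count without a share over all genes beside it. After quantile scaling 5 rose and 12 fell from 5 to 7 dpf, and 5 rose and 16 fell from 5 to 9 dpf, and calls over all genes were also more (9.36% from 5 to 7 dpf and 21.1% from 5 to 9 dpf). The calls from 5 to 7 dpf dropped to 4 without 7dpf_1, 5 without 7dpf_3 and 6 without 5dpf_1. The share of all genes called in those fits is not given here, so a loss particular to the clock genes is not shown.

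**Figure D1:**
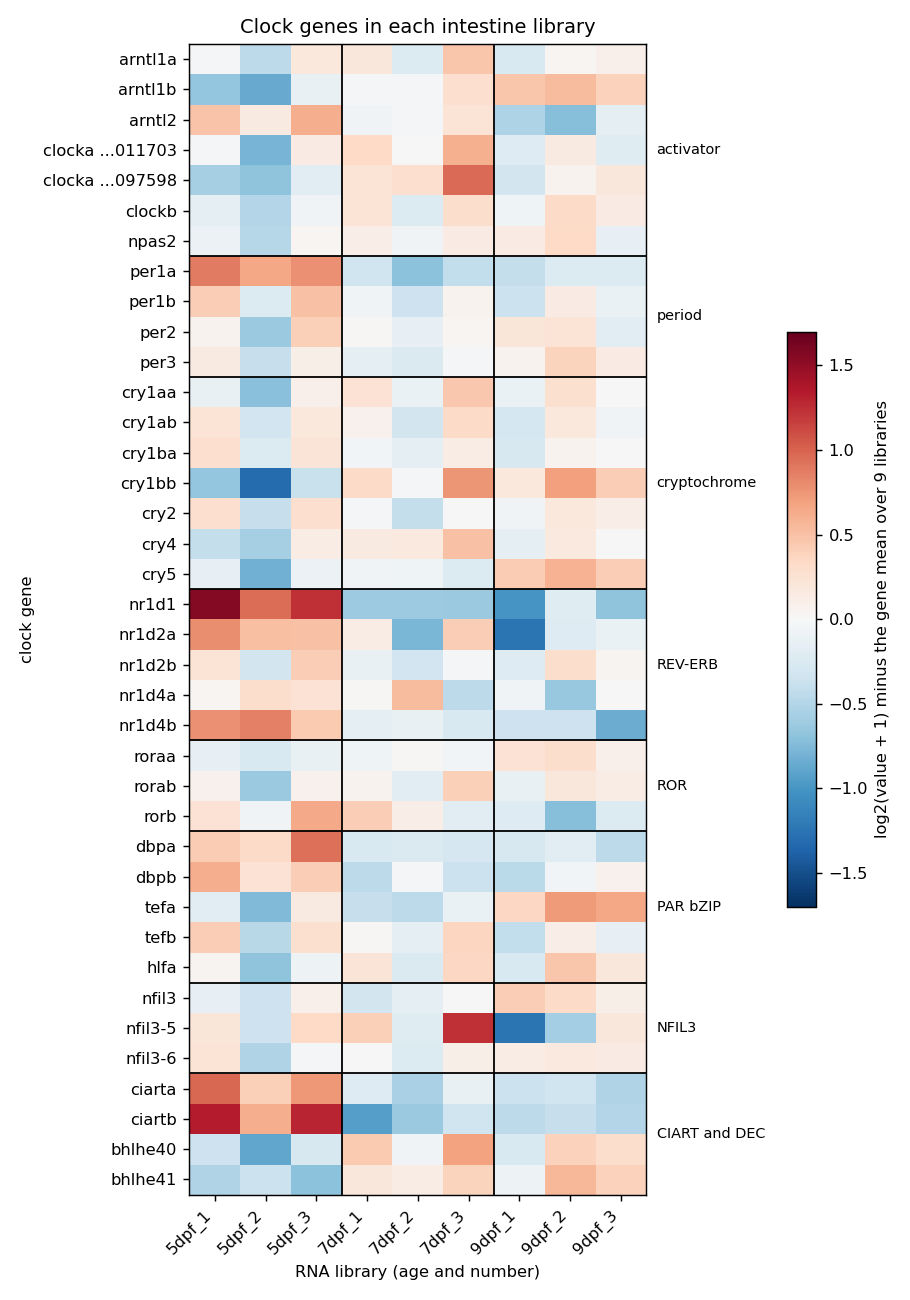
Each cell is log2(value + 1) of a clock gene described in the text (rows, grouped by class) in an RNA library (columns), minus the mean of that gene over the 9 libraries. nr1d1, per1a, ciarta and ciartb are above their means in all 5 dpf libraries and below them in all 7 and 9 dpf libraries, while arntl1b and cry1bb are below theirs at 5 dpf.

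**Figure D2:**
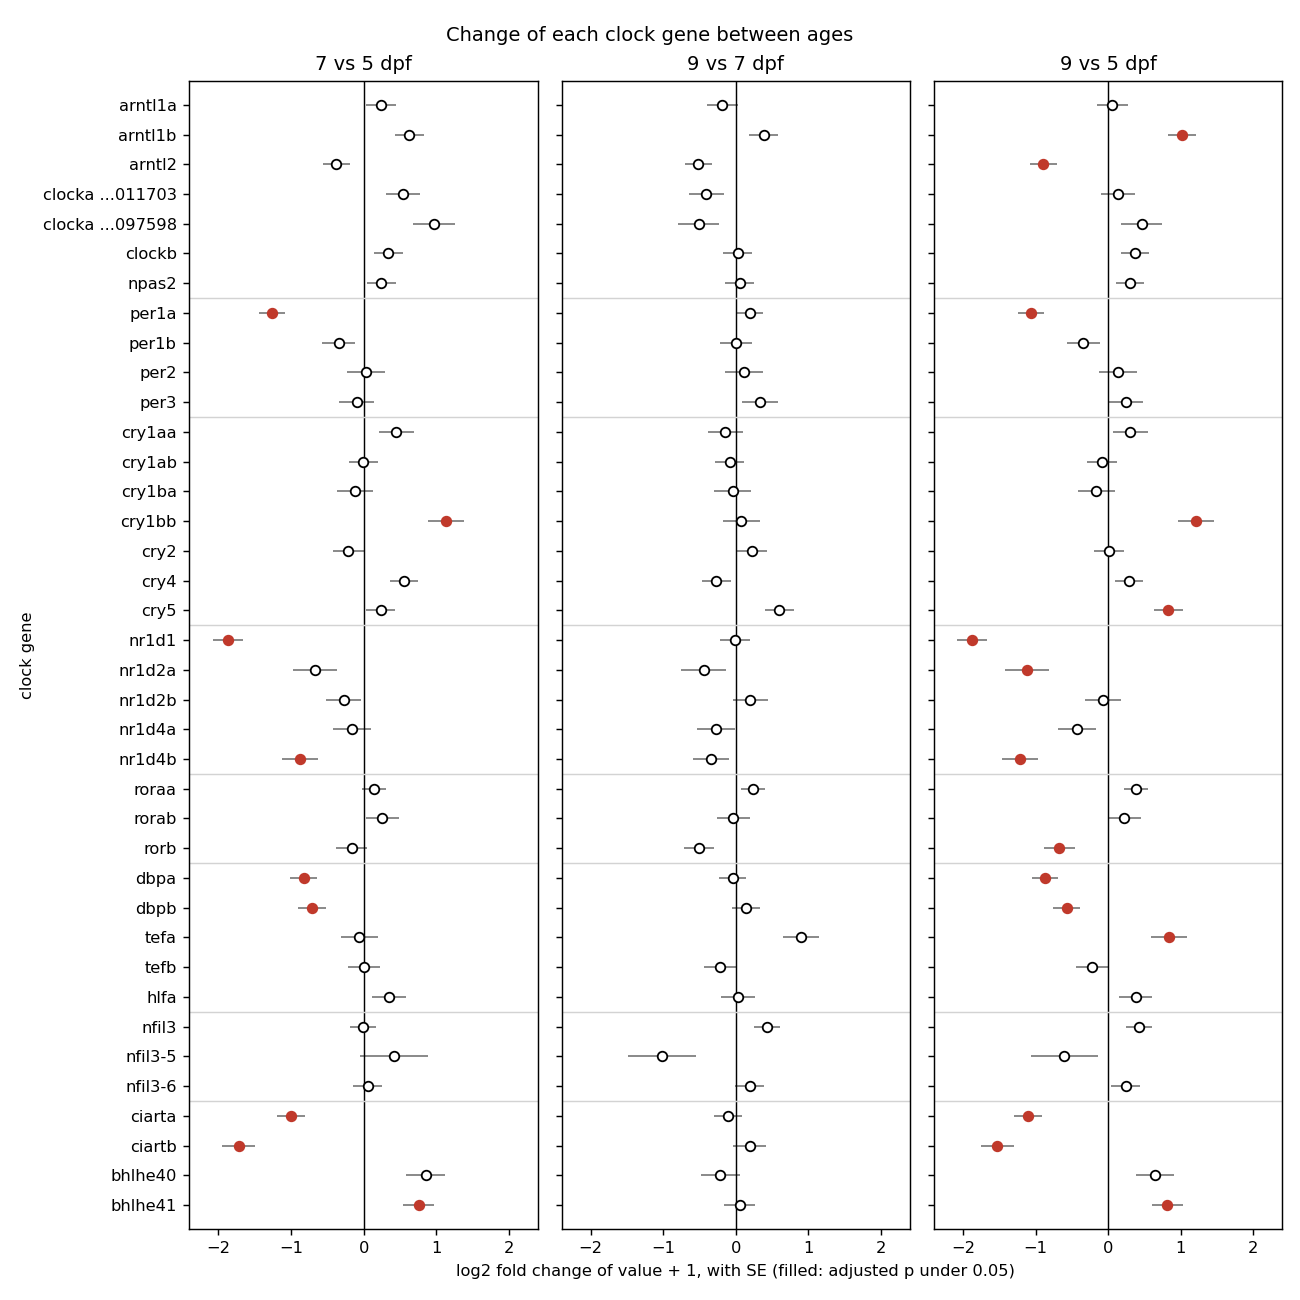
Points are log2 fold changes of value + 1 for each clock gene described in the text, in 3 comparisons of ages (3 pools each), bars are standard errors, and filled points have an adjusted p under 0.05 in limma. Filled points stand in the panels of 7 against 5 dpf and 9 against 5 dpf, with nr1d1 farthest to the left in both, and 0 stand in that of 9 against 7 dpf.

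The REV-ERB genes encode nuclear receptors that repress the arntl genes, and nr1d1 (ENSDARG00000033160), the central one, had the largest fall of the clock genes. Its values were 855, 559.6 and 684 in the 5 dpf libraries 1 to 3, then 189, 189 and 187 at 7 dpf and 144, 250.2 and 179 at 9 dpf. All later libraries lay below all 5 dpf libraries, and the 7 dpf libraries were nearly equal to each other. From 699.6 ± 149 it fell 3.65-fold to 188 ± 0.987 at 7 dpf (log2 -1.87, SE 0.21, adjusted p = 1.69e-05) and stood 3.68-fold below its 5 dpf level at 9 dpf (adjusted p = 2.97e-06). Between 7 and 9 dpf the interval (95%) of the difference ran from 0.734-fold to 1.33-fold. nr1d4b (ENSDARG00000059370), a fish member of the family with low counts, gave 63.2, 67.2 and 50.2 at 5 dpf, 32.8, 33.5 and 30.2 at 7 dpf, and 28.4, 28.5 and 19.8 at 9 dpf. It fell 1.83-fold from 5 to 7 dpf (adjusted p = 0.0490) and 2.32-fold from 5 to 9 dpf (adjusted p = 0.00198), with no overlap between any pair of ages. Its 7 dpf call was lost without 5dpf_1 (adjusted p = 0.168), 5dpf_2 (0.165), 7dpf_1 (0.165), 7dpf_2 (0.0508), 7dpf_3 (0.140), 9dpf_2 (0.0533) or 9dpf_3 (0.0521), with no filter (0.0617) and with a filter of 50 (0.0539).

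nr1d2a (ENSDARG00000003820), a REV-ERB beta gene, was more variable after 5 dpf. It gave 1815, 1499 and 1479 at 5 dpf, 1148, 615 and 1408 at 7 dpf, and 446, 905 and 974 at 9 dpf, so that every later library was below the 5 dpf libraries. The fall from 5 to 9 dpf was 2.17-fold (log2 -1.12, SE 0.30, adjusted p = 0.0160), and the call was lost without 5dpf_1 (0.0603), 5dpf_2 (0.0869) or 9dpf_1 (0.0733). Its paralog nr1d2b was at 1445 ± 352, 1175 ± 124 and 1359 ± 242 across the ages, with an interval of 0.672-fold to 1.35-fold for 9 against 5 dpf. After quantile scaling, however, nr1d2b was called lower than at 5 dpf, both at 7 dpf (log2 -0.60) and at 9 dpf (log2 -0.58). nr1d4a was between 29.4 and 68.1 in all libraries and was not called.

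Of the period genes, whose proteins repress the CLOCK and BMAL dimer, per1a (ENSDARG00000056885) was the one that changed. It was at 586, 503 and 543 at 5 dpf, 251, 196 and 237 at 7 dpf, and 239, 271 and 271 at 9 dpf. The 5 dpf libraries stood clear of the 6 later ones, whose values overlapped. The fall was 2.39-fold from 5 to 7 dpf (log2 -1.26, SE 0.18, adjusted p = 0.000246) and 2.09-fold from 5 to 9 dpf (adjusted p = 0.000342). per1b gave 822, 525 and 869.6 at 5 dpf, 592, 483 and 642 at 7 dpf, and 476, 681 and 567 at 9 dpf. The ages overlapped, and its difference of 9 from 5 dpf (0.789-fold, interval 0.570 to 1.09) was not called. After quantile scaling per1b was called lower than at 5 dpf, both at 7 dpf (log2 -0.58) and at 9 dpf (log2 -0.75). The light-induced per2 was at 1747 ± 592, 1710 ± 114 and 1858 ± 286, with an interval of 0.755-fold to 1.60-fold for 9 against 5 dpf. per3 was at 2239 ± 434, 2073 ± 162 and 2620 ± 304, and its 9 dpf libraries were all above those of 7 dpf without a call (adjusted p = 0.549). After quantile scaling per3 was called lower at 7 and at 9 dpf than at 5 dpf (log2 -0.48 and -0.32), against log2 -0.09 and 0.24 as reported.

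Both genes of CIART, also called Chrono, a repressor of the CLOCK and BMAL dimer, fell. ciartb (ENSDARG00000088171) gave 159, 96.1 and 154 at 5 dpf, 31.9, 39.8 and 49.1 at 7 dpf, and 45.7, 47.1 and 43.8 at 9 dpf. All later libraries were at about the same low level, and the lowest 5 dpf library was still above the highest of them. It fell 3.29-fold to 7 dpf (log2 -1.72, SE 0.23, adjusted p = 0.000120) and 2.88-fold to 9 dpf (adjusted p = 9.04e-05). ciarta (ENSDARG00000058094) gave 556, 373 and 472, then 242, 193 and 259, then 219, 223 and 198, again with the 5 dpf libraries apart. It fell 2.00-fold to 7 dpf (adjusted p = 0.00353) and 2.16-fold to 9 dpf (adjusted p = 0.000395).

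The other repressor genes of this class went the other way. bhlhe41 (ENSDARG00000041691, DEC2), which competes for E-boxes, was at 440, 488 and 385 at 5 dpf, 718, 686 and 816 at 7 dpf, and 589, 929 and 821 at 9 dpf, every later library being higher. It rose 1.69-fold to 7 dpf (adjusted p = 0.0440) and 1.76-fold to 9 dpf (adjusted p = 0.0113). The 7 dpf call was lost without 5dpf_1 (0.136), 5dpf_3 (0.128), 7dpf_1 (0.163), 7dpf_3 (0.168) or 9dpf_3 (0.0706), with no filter (0.0551) and after quantile scaling (0.0834), and the 9 dpf call without 9dpf_2 (0.0817) or 9dpf_3 (0.0629) and after quantile scaling (0.127). bhlhe40 (DEC1) had 1437, 1003 and 1531 at 5 dpf, 2518, 1761 and 2965 at 7 dpf, and 1539, 2410 and 2274 at 9 dpf. Its later libraries were also all higher, but its difference of 1.81-fold at 7 against 5 dpf was not called in limma (adjusted p = 0.0732), and was called in DESeq2 (adjusted p = 0.00731), in edgeR (0.04998), after quantile scaling (0.00311) and in limma without 7dpf_2 (0.0240). At 9 against 5 dpf it was 1.56-fold (adjusted p = 0.0997) and called without 9dpf_1 (0.0446) and in DESeq2 (0.0353).

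Among the PAR bZIP genes, which activate D-box targets, the dbp paralogs fell and tefa was higher at 9 dpf. dbpa (ENSDARG00000063014) gave 194, 178 and 275 at 5 dpf, 119, 121 and 117 at 7 dpf, and 118, 125 and 104 at 9 dpf, and the 7 dpf pools differed by less than any other age's. It fell 1.77-fold to 7 dpf (adjusted p = 0.0105) and 1.83-fold to 9 dpf (adjusted p = 0.00224), the first call being lost without 5dpf_3 (0.0573) or 7dpf_1 (0.0581). dbpb (ENSDARG00000057652) gave 304, 234 and 266, then 145, 193 and 153, then 144, 191 and 207, all later libraries below those of 5 dpf. It fell 1.64-fold to 7 dpf (adjusted p = 0.0321) and 1.49-fold to 9 dpf (adjusted p = 0.0399). For dbpb the 7 dpf call was lost without 5dpf_1 (0.161), 5dpf_3 (0.0607), 7dpf_1 (0.1996) or 7dpf_3 (0.101). The 9 dpf call was lost without 5dpf_1 (0.151), 5dpf_3 (0.0684), 7dpf_1 (0.0581), 9dpf_1 (0.144), 9dpf_2 (0.0839) or 9dpf_3 (0.0519), with no filter (0.0527) and with no robust step (0.0534).

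tefa (ENSDARG00000039117) followed a later course than the dbp genes. It had 1218, 829 and 1543 at 5 dpf and 1055, 1023 and 1283 at 7 dpf, which overlap, and 1773, 2299 and 2194 at 9 dpf, above all the others. It rose 1.79-fold from 5 to 9 dpf (log2 0.84, SE 0.25, adjusted p = 0.0238), with the call lost without 5dpf_1 (0.0565), 5dpf_2 (0.0926), 9dpf_2 (0.103) or 9dpf_3 (0.0944). The difference of 9 from 7 dpf was 1.86-fold (interval 1.30 to 2.66) and missed the threshold in limma (adjusted p = 0.0635), but passed after TMM scaling (0.0263) and in edgeR (0.0273) and DESeq2 (0.00258). In limma it also passed without 5dpf_2 (0.0123), 5dpf_3 (0.0475) or 7dpf_3 (0.0435), after quantile scaling (0.00121) and with the block (0.0485). tefb was at 306 ± 90.8, 300.3 ± 56.0 and 257 ± 47.5, and hlfa at 326 ± 81.8, 413 ± 85.1 and 423 ± 104, neither being called, although tefb was lower at 9 than at 5 dpf after quantile scaling (log2 -0.50). NFIL3 proteins repress D-box targets, and the 3 genes of that class were not called between ages, apart from nfil3-5 with the library numbers as a block (adjusted p = 0.00340 at 9 against 7 dpf). nfil3 was higher in every 9 dpf library (134.5 to 168.5) than in any earlier one (97.9 to 133.7) with adjusted p = 0.110 against 5 dpf, and nfil3-6 held between 232 and 389.6.

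In the activator class, the BMAL genes moved apart. arntl1b (ENSDARG00000035732) gave 192, 167 and 278 at 5 dpf, 300.3, 299 and 371 at 7 dpf, and 421, 439.6 and 400.5 at 9 dpf, with no overlap between any ages. It rose 2.02-fold from 5 to 9 dpf (log2 1.01, SE 0.20, adjusted p = 0.00126), while the difference of 7 from 5 dpf, 1.55-fold, was not called (adjusted p = 0.0756) except without 5dpf_3 (0.0211) and after quantile scaling (0.0364). arntl2 (ENSDARG00000041381), the BMAL2 gene, had 177, 140 and 193, then 121, 123 and 147, then 87.3, 75.6 and 112, the 9 dpf libraries being below all others. It fell 1.86-fold from 5 to 9 dpf (adjusted p = 0.00250). arntl1a was at 275 ± 58.3, 327 ± 77.8 and 284 ± 35.9, with an interval of 0.770-fold to 1.41-fold for 9 against 5 dpf.

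The partners of BMAL were not called in any comparison of ages with all 9 libraries, apart from the clocka rows in some alternatives. The clocka row ENSDARG00000011703 gave 481, 281 and 535 at 5 dpf, 614, 490.2 and 737 at 7 dpf, and 418, 539.7 and 422 at 9 dpf. The 2 later ages overlapped, as did 5 and 7 dpf. In limma after quantile scaling this row was called lower at 9 than at 7 dpf (log2 -0.56, adjusted p = 0.0149). The difference of its steps was then called too (log2 -0.90, adjusted p = 0.0338). The clocka row ENSDARG00000097598, which has no symbol in the reference names, stayed between 17.7 and 57.6. It was 1.96-fold higher at 7 than at 5 dpf (adjusted p = 0.0561), a difference called without 5dpf_3 (0.0486) or 7dpf_2 (0.0411), after quantile scaling (0.0316) and with the block (0.0432), and reads shared by the rows of that name would be uncertain. clockb was at 275 ± 42.7, 350 ± 66.7 and 354 ± 48.3, and npas2, a CLOCK paralog, at 319 ± 56.3, 375 ± 27.6 and 391.9 ± 64.0.

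Among the cryptochromes are repressors of the CLOCK and BMAL dimer and, as cry5, DNA repair enzymes driven by light. cry1bb (ENSDARG00000091131, cry3b in the reference names) had 427, 272 and 517 at 5 dpf, 848, 666 and 1133 at 7 dpf, and 762, 1093 and 900.1 at 9 dpf. Every later library was above the 5 dpf libraries. It rose 2.20-fold to 7 dpf (adjusted p = 0.0105) and 2.32-fold to 9 dpf (log2 1.21, SE 0.25, adjusted p = 0.00205), and the 7 dpf call was lost without 7dpf_1 (0.0547) or 7dpf_3 (0.0519). cry5 (ENSDARG00000019498), the (6-4) photolyase, gave 311, 193 and 319, then 328, 326 and 292, then 461, 514 and 456, with 9 dpf alone standing apart. It rose 1.78-fold from 5 to 9 dpf (adjusted p = 0.00683). The difference of 9 from 7 dpf, 1.51-fold with an interval of 1.13 to 2.02, was not called (adjusted p = 0.131), but was without 5dpf_2 (0.0401).

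The remaining cryptochromes were not called. cry1aa, which light induces, was at 877 ± 232, 1183 ± 229 and 1061 ± 151, with an interval of 0.964-fold to 1.93-fold for 7 against 5 dpf. cry4 was at 173, 155 and 249 at 5 dpf and at 255, 256 and 324 at 7 dpf, without overlap, and the difference was called only without 5dpf_3 (adjusted p = 0.120, and 0.0348 without that library). cry1ab ranged from 149 to 234, cry2 from 320.5 to 519 and cry1ba (cry3a in the reference names) from 2641 to 3917. After quantile scaling cry1ba and cry2 were called lower than at 5 dpf, both at 7 dpf (log2 -0.54 and -0.42) and at 9 dpf (log2 -0.75 and -0.35).

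The ROR genes encode nuclear receptors that activate the arntl genes, and the ones described here do not stand for the class. rorb (ENSDARG00000033498), known from retina and brain, had 130.3, 104 and 172, then 146, 118 and 96.4, then 93.4, 65.7 and 92.8, the 9 dpf libraries being the lowest. It fell 1.59-fold from 5 to 9 dpf (adjusted p = 0.0324), and the call was lost without 5dpf_1 (0.0707), 5dpf_3 (0.138), 9dpf_2 (0.193) or 9dpf_3 (0.0540) and with no robust step (0.0515). The 9 neuron markers summed to 716 to 793 at 5 dpf and 607 to 721 at 9 dpf, and the 15 photoreceptor and pineal markers to 624 to 789.6 and 557 to 639, and their part in the fall of rorb was not tested. roraa was higher at each age without overlap, at 189 ± 9.94, 209 ± 7.67 and 248 ± 18.5, but its 1.31-fold difference at 9 against 5 dpf was not called (adjusted p = 0.112), and rorab was at 586 ± 150, 693 ± 141 and 671 ± 78.0.

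**Figure D3:**
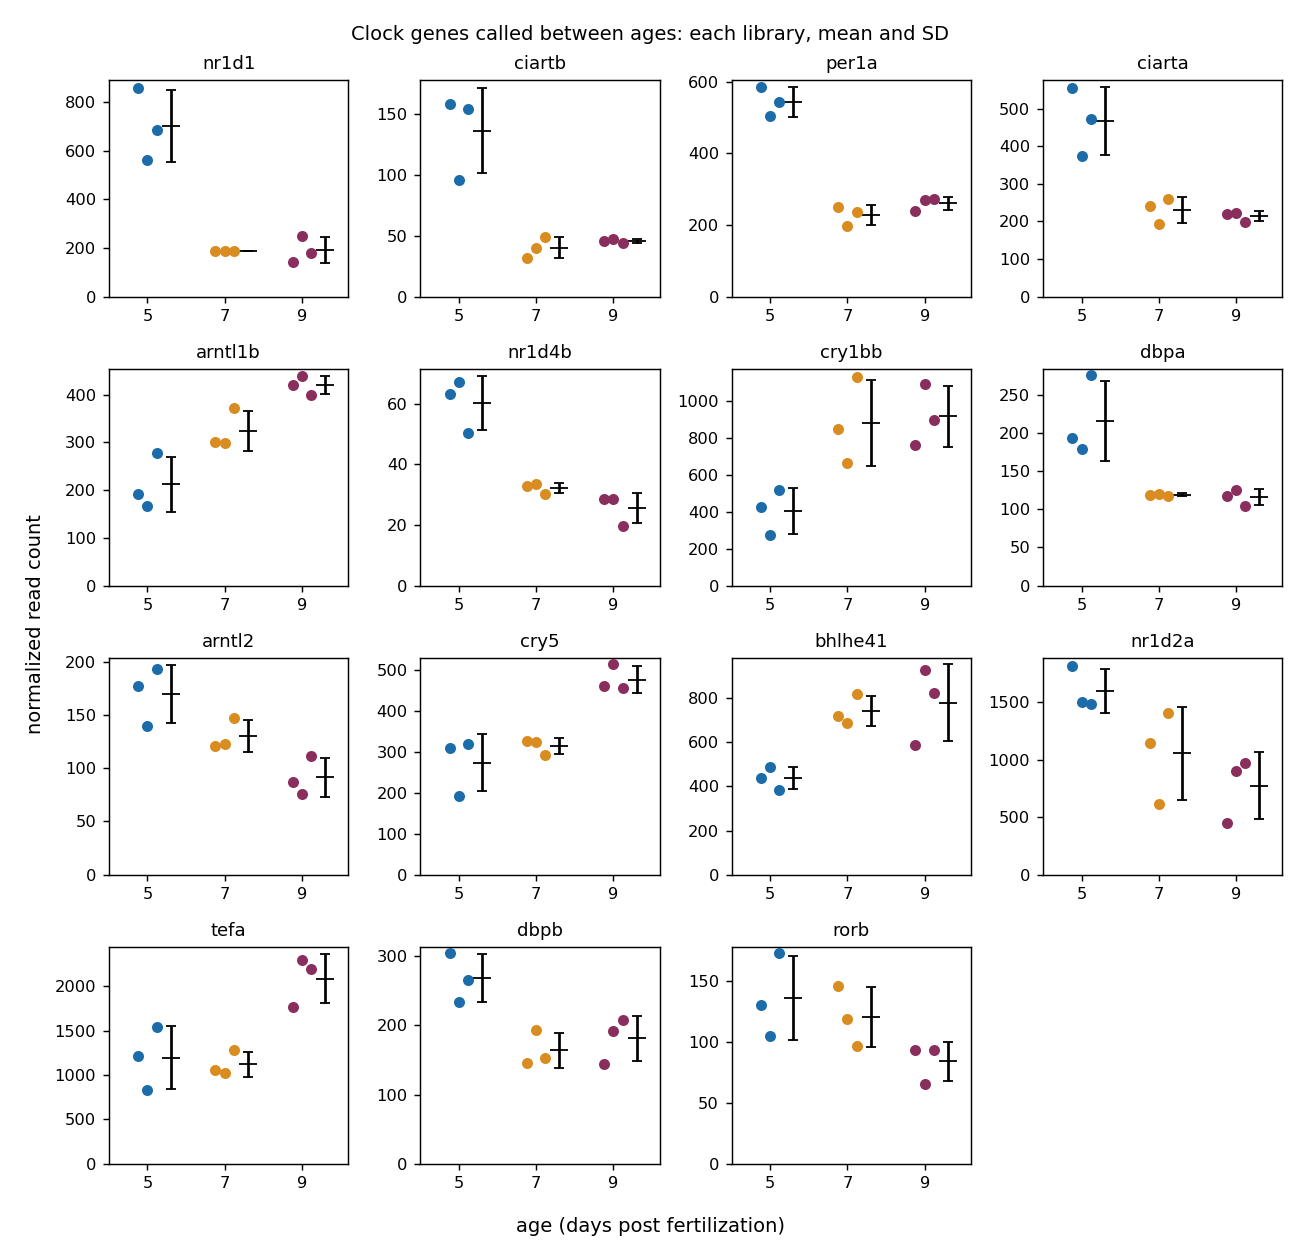
Each panel is a clock gene of the text called in at least 1 comparison of ages; points are normalized read counts of the 3 libraries at 5, 7 and 9 dpf, and the bar beside them is their mean and SD, on an axis that starts at 0. nr1d1, per1a, ciarta and ciartb are high at 5 dpf and low later, whereas cry5 and tefa are higher at 9 dpf than at the other ages.

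Whether the later step differed from the earlier one was tested as the change from 7 to 9 dpf minus the change from 5 to 7 dpf. This difference was called for 3 clock genes, 7.5% of them and all with a positive difference, where 1% of all genes tested were called (0.642% positive, and 1.23% of genes with a mean as high as the lowest clock gene). They were nr1d1 (log2 1.85, SE 0.36, adjusted p = 0.0115), ciartb (log2 1.91, SE 0.40, adjusted p = 0.0179) and per1a (log2 1.45, SE 0.31, adjusted p = 0.0219), whose fall from 5 to 7 dpf was not continued to 9 dpf. Without 7dpf_1 none of the 3 was called, with adjusted p of 0.0949 for nr1d1, 0.217 for ciartb and 0.105 for per1a. The call of ciartb was also lost without 5dpf_1 (0.0538), and that of per1a without 5dpf_1 (0.0633), 7dpf_2 (0.111) or 9dpf_3 (0.0583). For the arntl genes, tefa and cry5 the steps were not shown to differ, except for tefa after quantile scaling (log2 1.04, adjusted p = 0.00463).

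Paralogs were compared by the ratio of their values in each library, which does not depend on a single scaling factor per library, though quantile scaling would change it. Transcript length sets the size of a ratio, so only its change between ages is read, and the ratios are a description. The ratio of cry1ba to cry1bb was 9.17, 10.1 and 7.21 in the 5 dpf libraries, 3.67, 4.31 and 3.09 at 7 dpf and 3.46, 3.06 and 3.56 at 9 dpf, with 5 dpf apart from the later ages. Of the TEF genes, tefa to tefb stood at 3.24, 4.08 and 4.54, then 3.68, 4.05 and 3.55, then 8.43, 7.53 and 8.55, so it was 9 dpf that stood apart. The ratio of per1a to per1b was 0.713, 0.957 and 0.625 at 5 dpf, 0.424, 0.406 and 0.370 at 7 dpf and 0.501, 0.398 and 0.478 at 9 dpf. For arntl1a to arntl1b it stepped down from 1.18 to 1.48 at 5 dpf, over 0.828 to 1.11 at 7 dpf, to 0.576 to 0.773 at 9 dpf. The dbp paralogs kept overlapping ratios of 0.636 to 1.03, 0.625 to 0.821 and 0.502 to 0.817. The ciart paralogs both fell, but ciarta to ciartb was 3.06 to 3.88 at 5 dpf and higher later, at 4.84 to 7.57 and 4.52 to 4.80. For cry1aa to cry1ab, neither of them called, it was 4.18 to 5.08 at 5 dpf, then 5.96 to 6.24 and 5.62 to 6.17. The ratios of roraa to rorab overlapped between all ages, at 0.287 to 0.431, 0.246 to 0.385 and 0.326 to 0.4355. Further pairs were computed and are not described here.

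Libraries of the same age also differed from each other. In 5dpf_2 37 of the 40 clock genes were below their 5 dpf mean, with a median deviation of log2 -0.34, while 57.6% of all genes tested were below theirs with a median of -0.07. In 7dpf_2 31 were below their 7 dpf mean and in 9dpf_1 29 below their 9 dpf mean, each with a median of -0.18. Over all genes 52% and 54.5% were below, with medians of -0.02 and -0.03. Each of these libraries had the fewest reads of its age (7014333, 8643185 and 9974251), and the part of depth was not tested. Without 5dpf_2 9 clock genes were called at 7 against 5 dpf and 14 at 9 against 5 dpf, and the share of all genes called in that fit is not given here. nfil3-5, a member of an expanded fish family, gave 278, 181 and 496 at 7 dpf and 88.3, 140.3 and 239 at 9 dpf. At 5 dpf it gave 241, 163 and 266, so its highest libraries were 5dpf_3, 7dpf_3 and 9dpf_3. The library numbers were not read as a pairing, as the best match of a library bore its own number for 1 of 9. nfil3-5 was not called between ages unless the library numbers entered the fit as a block. The block called it lower at 9 than at 7 dpf (adjusted p = 0.00340) and than at 5 dpf (0.0490), and the difference of its steps (0.0295). Without the block its interval at 9 against 7 dpf was wide, from 0.233-fold to 1.04-fold.

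Other genes of the clock system were taken from 4 lists. Of 28 genes that modify clock proteins (kinases, ubiquitin ligases and corepressors), 0 were called at 7 against 5 dpf or 9 against 7 dpf. Of all genes tested 4.05% and 1.88% were called there. At 9 against 5 dpf 6 rose and 0 fell, beside 12.6% and 4.28% of all genes tested. fbxl3a, whose human counterpart marks CRY proteins for degradation, was at 240.3 ± 45.7 at 5 dpf, 381 ± 93.5 at 7 dpf and 388 ± 60.4 at 9 dpf, and rose 1.62-fold from 5 to 9 dpf (adjusted p = 0.0271). Its call was lost without 5dpf_1, 5dpf_2, 9dpf_2 or 9dpf_3 (adjusted p 0.0730, 0.0912, 0.113 and 0.119). The casein kinase 2 subunit genes csnk2b and csnk2a1 rose 2.03-fold and 1.67-fold (adjusted p = 0.00727 and 0.0350), and the deacetylase gene hdac3, a partner of REV-ERB, rose 1.53-fold (adjusted p = 0.0310). csnk2b lost its call without 9dpf_2 (0.0503). csnk2a1 lost it without 5dpf_1 (0.0585), 5dpf_2 (0.114), 7dpf_1 (0.0572), 9dpf_2 (0.155) or 9dpf_3 (0.0879) and after quantile scaling (0.0587), and hdac3 without 5dpf_2 (0.107), 9dpf_2 (0.162) or 9dpf_3 (0.104) and after quantile scaling (0.0523).

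Of 29 genes known elsewhere as clock-controlled outputs, 2 rose and 3 fell from 5 to 7 dpf, 0 rose and 3 fell from 7 to 9 dpf, and 1 rose and 6 fell from 5 to 9 dpf. Of all genes tested 2.63% rose and 1.43% fell in the first comparison, 1.5% and 0.383% in the next, and 12.6% and 4.28% in the last. nocta (ENSDARG00000077726), the gene of the phosphatase nocturnin, gave 445, 177 and 444 at 5 dpf, 111, 96.4 and 90.7 at 7 dpf, and 182, 271 and 248 at 9 dpf. It was lowest at 7 dpf with no overlap, falling 3.28-fold from 5 dpf (log2 -1.71, adjusted p = 0.00549), or without 7dpf_3 with adjusted p = 0.0520. The steps of nocta differed by log2 2.92 (adjusted p = 0.0163, with 0.0598 without 7dpf_1, 0.126 without 7dpf_2, 0.117 without 7dpf_3 and 0.0503 without 9dpf_2). cdkn1a, the cell cycle inhibitor p21, gave 129, 77.4 and 103 at 5 dpf, 36.2, 27.2 and 57.6 at 7 dpf, and 56.9, 61.8 and 51.1 at 9 dpf, and fell 2.58-fold to 7 dpf (adjusted p = 0.00258). The steps of cdkn1a differed too (log2 1.91, adjusted p = 0.0333), a call lost in some alternatives. lpin1, the lipid phosphatase lipin, gave 3175, 1525 and 3161 at 5 dpf, 3256, 2087 and 4695 at 7 dpf, and 569.6, 1216 and 823 at 9 dpf, and fell 3.82-fold from 7 to 9 dpf (adjusted p = 0.00621). usp2b, a deubiquitinase gene, fell 1.81-fold from 5 to 9 dpf (adjusted p = 0.0102, with 0.0542 without 5dpf_3 and 0.0652 without 9dpf_3).

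Of 23 genes on a list of light response and DNA repair, 0 were called from 5 to 7 dpf, beside 4.05% of all genes tested. From 7 to 9 dpf 0 rose and 1 fell, beside 1.5% and 0.383%. From 5 to 9 dpf 2 rose and 2 fell, beside 12.6% and 4.28%. The genes that rose were cry-dash and xpc. cry-dash, of a photolyase-like family, gave 269.6, 189 and 317 at 5 dpf, 374, 298 and 318 at 7 dpf, and 467, 529 and 479 at 9 dpf, and rose 1.94-fold from 5 to 9 dpf (adjusted p = 0.00239). xpc, which recognizes damaged DNA, went from 234 ± 60.1 over 296 ± 37.7 to 419.8 ± 54.5 and rose 1.82-fold (adjusted p = 0.00586). For cry-dash and xpc, as for cry5, the 9 dpf libraries were above all others. gadd45ba, a stress-response gene, fell 2.14-fold from 7 to 9 dpf (adjusted p = 0.00774, with 0.0584 without 7dpf_1 and 0.0628 without 9dpf_3). The opsin gene tmtops2b, a nonvisual light receptor, fell 1.62-fold from 5 to 9 dpf (adjusted p = 0.0443, and 0.0599 to 0.161 without 5dpf_1, 5dpf_2, 7dpf_1, 9dpf_2 or 9dpf_3). Its call was also lost with no filter (0.0568), after quantile scaling (0.0772), in DESeq2 (0.0633) and with the block (0.0537).

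Glucocorticoids can also set the phase of peripheral clocks. Of 14 genes that respond to them 2 rose and 0 fell from 5 to 7 dpf, beside 2.63% and 1.43% of all genes tested. From 7 to 9 dpf 0 were called, beside 1.88%. From 5 to 9 dpf 4 rose and 1 fell, beside 12.6% and 4.28%. Called genes of the list thus went both ways, and the part of glucocorticoids in these changes was not tested. klf9, a zinc finger gene induced by glucocorticoids, gave 1619, 653 and 1337 at 5 dpf, 977, 658 and 1453 at 7 dpf, and 349, 647 and 479 at 9 dpf, and fell 2.35-fold from 5 to 9 dpf (adjusted p = 0.0288), a call lost without 5dpf_1 (0.0784), 5dpf_3 (0.0968), 9dpf_1 (0.0759) or 9dpf_3 (0.0677). sgk1, a kinase gene of salt transport, rose 2.15-fold from 5 to 9 dpf (adjusted p = 0.0109, with 0.0740 without 9dpf_2). angptl4, an inhibitor of lipoprotein lipase, rose 2.15-fold from 5 to 7 dpf (adjusted p = 0.00425), from 547 ± 99.9 to 1165 ± 102. The metallothionein mt2, which metals also induce, rose 27.8-fold in that step, from 39.2 ± 14.9 to 1141 ± 465 (adjusted p = 1.69e-05). At 9 dpf mt2 stood at 2271 ± 619, 57.5-fold above 5 dpf (adjusted p = 6.32e-07). Its steps differed by log2 -3.75 (adjusted p = 0.0119), a call lost in some alternatives.

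**Figure D4:**
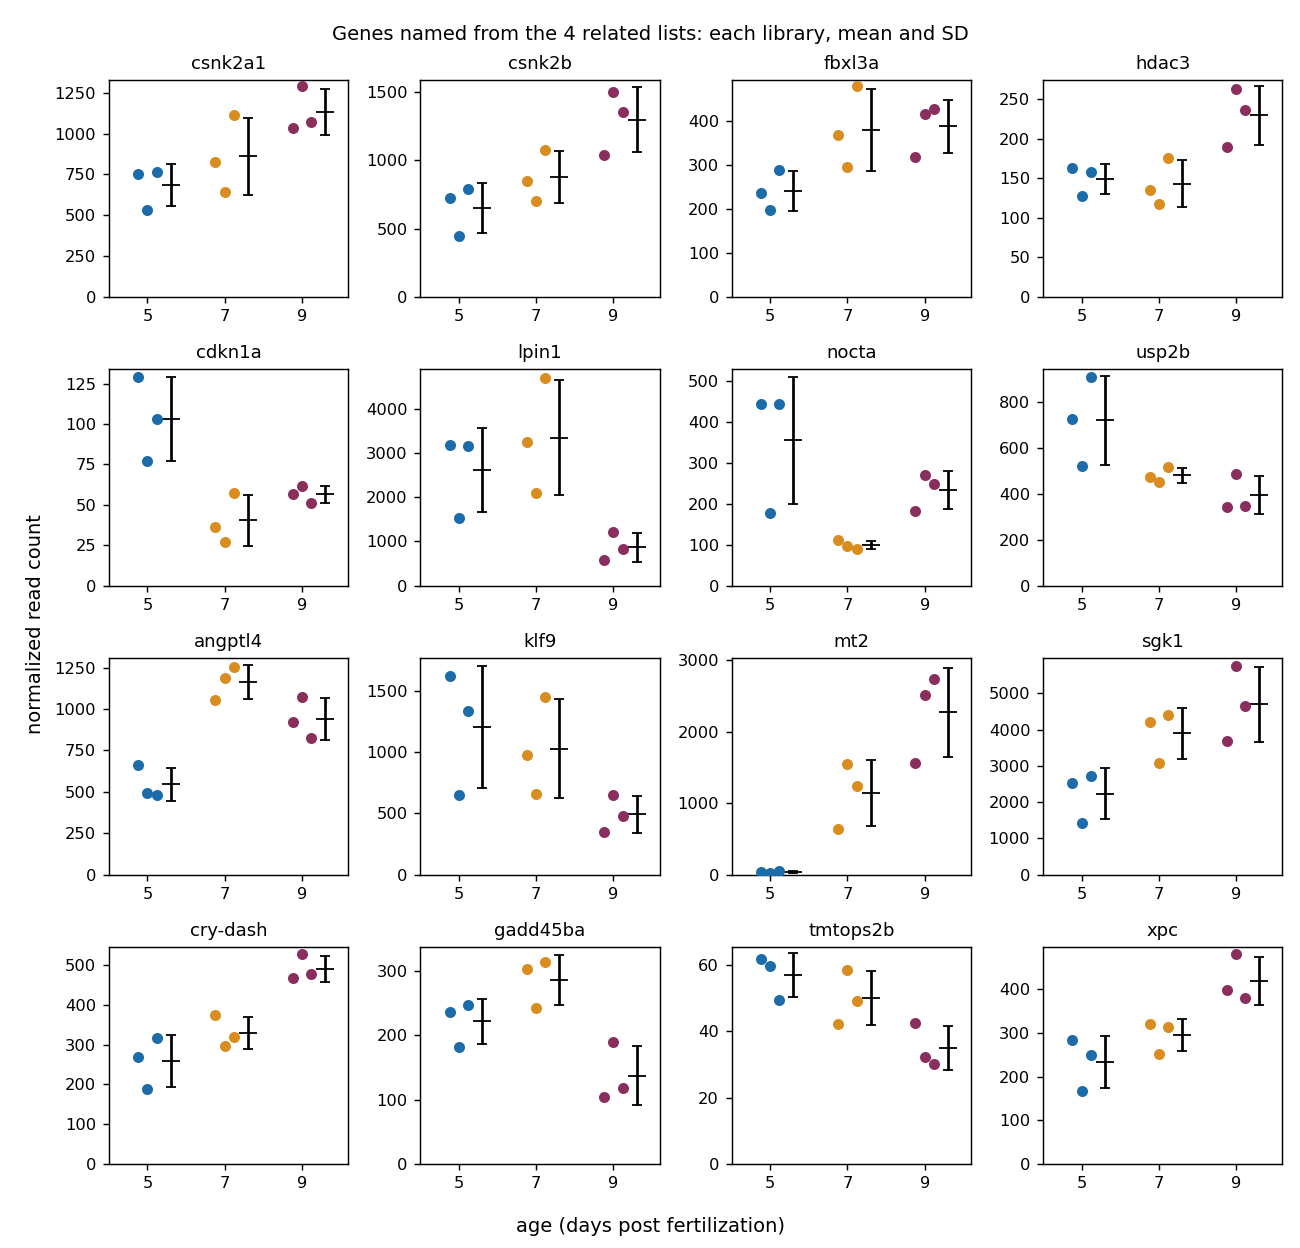
Each panel is a gene named from the lists of clock protein modifiers, outputs, glucocorticoid response and light response; points are normalized read counts of the 3 libraries per age and the bar is their mean and SD, on an axis that starts at 0. nocta is lowest at 7 dpf, lpin1 is lowest at 9 dpf, and cry-dash and xpc are highest at 9 dpf.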

How the data were processed

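RNA values were deposited as a signal: read counts per gene that the authors divided by 1 size factor per library, as the values show (recomputed median-of-ratios factors were the same). Per the submitters' processing notes STAR 2.5.2b, GRCz10 and DESeq2 1.16.1 were used; the counting tool, its strand setting and the annotation release are not given in the sources used here. Multiplying each deposited column by its factor gave whole reads for 100% of values (tolerance 1e-06). Of 30263 identifiers 26065 matched the reference names.

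The test was limma 3.58.1 on log2(value + 1), with trend and robust variances, for the 24298 genes that reached 10 in 3 or more libraries. A single fit held all ages, and p-values were adjusted by Benjamini-Hochberg for each contrast. Fold changes rest on value + 1, which understates those of low genes. Alternatives were pseudocounts of 0.5 and 5, no filter or a filter of 50, TMM and quantile scaling, edgeR 4.0.16 and DESeq2 1.42.0 on the recovered reads, a replicate block, no robust step, and each library left out. The scripts were tested on simulated data.

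The clock genes and lists were chosen with earlier results of these data known. Clock genes called between ages are given by library, except for rows counted in the totals but not reported here, and of each related list the 4 called genes with the smallest adjusted p are named. Whether the pools of an age were of separate clutches is not stated in the labels, so p-values measure the spread between these pools, which may be technical. The 15 peak lists were not used, since no annotation of their build was at hand to place peaks at genes.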

Additional observations from a re-analysis of the deposited data

Results flagged for a closer look

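The change from 7 to 9 dpf differed from the change from 5 to 7 dpf, by limma's test of that difference, for nr1d1 (log2 1.85), ciartb (log2 1.91) and per1a (log2 1.45). Each fell in the first step (log2 -1.87, -1.72 and -1.26) and was near 0 in the second (log2 -0.01, 0.19 and 0.20). The steps share the 7 dpf libraries, and without 7dpf_1 the difference was not called for any of the 3. The hour of collection and age cannot be told apart.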

How the results depend on the processing

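Of the calls of clock genes, 4 of 10 at 7 against 5 dpf, 10 of 16 at 9 against 5 dpf and 0 of 3 for the difference of the steps held in all 19 alternatives, and none changed sign. Quantile scaling gave 17 calls at 7 against 5 dpf, 3 at 9 against 7 dpf and 10 for the difference of the steps, while its calls over all genes were 9.36%, 6.39% and 3.3%. At 9 against 7 dpf TMM scaling, edgeR and DESeq2 gave 1 call each, beside 3.19%, 3.25% and 3.57% of all genes, and the replicate block gave 2. With 1 library left out the calls ran from 4 to 11 at 7 against 5 dpf, 0 to 2 at 9 against 7 dpf, 11 to 16 at 9 against 5 dpf and 0 to 3 for the difference of the steps. For the block and for the fits with a library left out, no share over all genes is given beside these counts. A shift particular to the clock genes is therefore not shown for those fits. After quantile scaling the median change of the clock genes at 9 against 5 dpf was log2 -0.267, against 0.099 as reported. Over all genes that median was -0.043 and -0.042. At 7 against 5 dpf the clock gene median was -0.094 after quantile scaling and 0.016 as reported, and over all genes -0.015 and -0.002. With TMM scaling the clock gene median at 9 against 5 dpf was 0.049. The cause of the shifts was not tested. The numbers of the libraries were not read as a pairing: same-number correlations after removal of age means ran from -0.42 to 0.47, and the best match of a library bore its own number for 1 of 9. The counts of histone peaks at start sites planned for the clock genes were not run, for want of an annotation of the build of the peaks.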
